A study of Mus musculus with 24 samples.

Results

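Of the 1881 mouse microRNAs (miRNAs) on the array, 157 carry a number from 7210 to 7700 in their name, as in mmu-miR-7210-5p, and these are the members described here. They were chosen by the number in the name alone, with any letter or arm, so that no measured value entered the choice. They belong to 79 hairpin names, of which 78 are represented by both arms and 1 by a single product. Liver RNA of 3 mice was hybridized to 24 one-colour arrays, 1 array per mouse in each of 8 groups. Fresh groups (0 h) came from liver put into RNAlater directly, and stored groups from liver kept at room temperature for 96 h, in both cases as total RNA with its small RNAs and prepared either with or without DNase digestion. Depleted groups came from fresh liver of the same animals as DNase-treated RNA with its small RNAs greatly reduced but not fully removed, which was hybridized as isolated or after 30 min with RNase at 0 U, 0.026 U or 0.67 U. The mice were male according to the study. It names C57BL6 mice of an Il1a knock-out strain for its time course, but does not say whether the 3 mice used here were of this strain, and their age is not given in the sources used here. RNA incubated at any dose, 0 U included, was isolated a second time afterwards, by a procedure that keeps small fragments. The parts of 1 liver differ in handling only, and the 4 depleted samples of a mouse go back to 1 RNA preparation.

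A miRNA is a short RNA that is cut from a hairpin precursor by the enzymes Drosha and Dicer and loaded into an Argonaute protein. Its seed, bases 2 to 8, pairs with target transcripts, which are then silenced. The 5p and the 3p product come from the opposite arms of a hairpin, and in a functional miRNA usually 1 arm prevails. Names are given in order of discovery, so that high numbers mostly stand for miRNAs found by deep sequencing rather than by cloning, and for most miRNAs of these numbers no function is established. Adult liver is dominated by a few abundant miRNAs of hepatocytes, with miR-122-5p as the best known.

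A mature sequence was found for 134 of the 157 members in the RefSeq table used here (build GRCm38.p6). The first set shows arms whose signals were high after storage, chosen because these carry the main result. The seed is in capitals.
mmu-miR-7686-5p: cCUUCCACuggaccuggggcugggc
mmu-miR-7226-5p: gCCAGGGAaguugauugugugaaggg
mmu-miR-7687-5p: aGGCGGGGaaccugaggcgcaggcu
mmu-miR-7238-5p: aUGCGGAUgggacgcggc
mmu-miR-7672-5p: cGGUGGACuugacagcgggcga
mmu-miR-7216-5p: uGGAGAGCuggcagaggacccaga
mmu-miR-7221-3p: uGACUGUGggcuggggacugg
mmu-miR-7648-3p: aGGGCUGGgcccgggacgcgg
mmu-miR-7677-5p: aGUGGUGAgcagaaagcagccgcgg
The second set shows arms not called higher after storage with DNase, and beside them both arms of miR-7653, which were.
mmu-miR-7241-5p: aCUUGCAUgaguuaauacccacc
mmu-miR-7211-5p: uCUUUCCCucugccacuccacc
mmu-miR-7687-3p: cCACUCAGucgccccgccaca
mmu-miR-7665-3p: aGCCAGGUcccuguccccuaca
mmu-miR-7667-5p: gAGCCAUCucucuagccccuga
mmu-miR-7235-3p: uCUGACUUcuugcuucucuccuc
mmu-miR-7653-5p: uAAGGGGCggacagacagacgg
mmu-miR-7653-3p: cCCCUACUguuccaccccgccu
The share of G runs from 36% to 57.1% in the first set and from 4.55% to 18.2% in the second, apart from miR-7653-5p with 45.5%. Both sets are examples chosen with the values known, so the gap between them is partly made by the choice. Not shown are mmu-miR-7218-3p with 25% and mmu-miR-7217-5p with 28%, which were called higher, and mmu-miR-7214-3p with 20.8%, which was not.

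In the genome, mmu-miR-7686-5p lies on the minus strand at chr7:139957598-139957622 in the span of the long noncoding RNA gene Gm16201, and mmu-miR-7226-5p on the minus strand at chr4:118210539-118210564 in the span of Ptprf, a receptor tyrosine phosphatase gene. Both arms of miR-7687 lie on the plus strand in the span of Gse1, the 5p arm at chr8:120538696-120538720 and the 3p arm at chr8:120538734-120538754. mmu-miR-7677-5p is at chr17:27091245-27091269 on the plus strand in the span of Itpr3, a gene for a calcium channel of the endoplasmic reticulum. mmu-miR-7241-5p is at chr9:67727758-67727780 on the minus strand in the span of C2cd4b. Of the 75 hairpin genes with a sequence, 56 lie in the span of a protein-coding gene and 61 in the span of any other gene, and whether they lie in exons or introns was not analysed here. Among neighbouring hairpin genes, 3 pairs were closer than 10000 bases, namely Mir7217 and Mir7218 (2359 bases apart on chromosome 17), Mir7221 and Mir7222 (2396 bases, chromosome 2), and Mir7241 and Mir7242 (1798 bases, chromosome 9). The seed of 21 of the 134 members was shared with another miRNA of the array, for example that of mmu-miR-7648-3p with mmu-miR-762 and mmu-miR-6940-5p, and 2 of the 134 shared a seed with another member.

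The signal given here is the total gene signal of the scanner software, which sums the background-subtracted fluorescence of a miRNA's probes in arbitrary units. It is about 0 or slightly negative where nothing is bound, and the software flags each miRNA as detected or not. Signals of different probes are not compared. RNA integrity numbers (RIN, where 10 stands for intact RNA) averaged 8.93 in the fresh DNase-treated group and 2.33 in the stored one. Of the 10 cell type miRNAs examined, 9 were detected on all 3 fresh DNase-treated arrays and miR-150-5p of leukocytes on 2, and miR-122-5p of hepatocytes had signals of 6767 to 12125 there. As in any bulk sample, fewer cells of a type and less RNA per cell cannot be told apart. Mouse, slide and scan coincide and cannot be separated.

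Samples of 2 mice stood apart. For mouse 9 the labels of both RNase-treated samples contradict each other as to the dose. They were grouped by their descriptions, which the RIN values of 6.0 at 0.026 U and 2.4 at 0.67 U follow, but the sample placed at 0.026 U had 408 detected miRNAs against 255 and 274 for the other mice at this dose. For mouse 10, the stored DNase-treated array was more like the stored arrays without DNase than like its own group. Over the 42 members detected on all 6 stored arrays, its log2 signals correlated at r = 0.979 with those of the array without DNase of the same mouse, at 0.940 and 0.934 with those of mice 7 and 9 without DNase, and at 0.784 and 0.664 with the DNase-treated arrays of mice 7 and 9. Across the 485 miRNAs detected on all 6 stored arrays these values were 0.972, 0.938, 0.936, 0.881 and 0.840. Points of such a correlation share arrays and are not independent.

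Most members were not seen in intact liver RNA. On fresh DNase-treated arrays 8, 10 and 10 members were detected in mice 7, 9 and 10, and without DNase 9, 7 and 11. After 96 h of storage the numbers were 53, 60 and 44 with DNase and 44, 43 and 46 without, and every stored array held more members than any fresh array. In depleted RNA 10, 7 and 5 members were detected, and 8, 8 and 11 after incubation at 0 U. RNase at 0.026 U gave 13, 29 and 15 members, and 0.67 U gave 21, 23 and 26. All 6 RNase-treated arrays held more members than any depleted array without RNase, and the 0.026 U array of mouse 9 exceeded all arrays at 0.67 U. In percent of each set, 5.94% of the members and 15.9% of all 1881 miRNAs were detected per fresh DNase-treated array on average, but 33.3% and 34.2% per stored one.

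**Figure D1:**
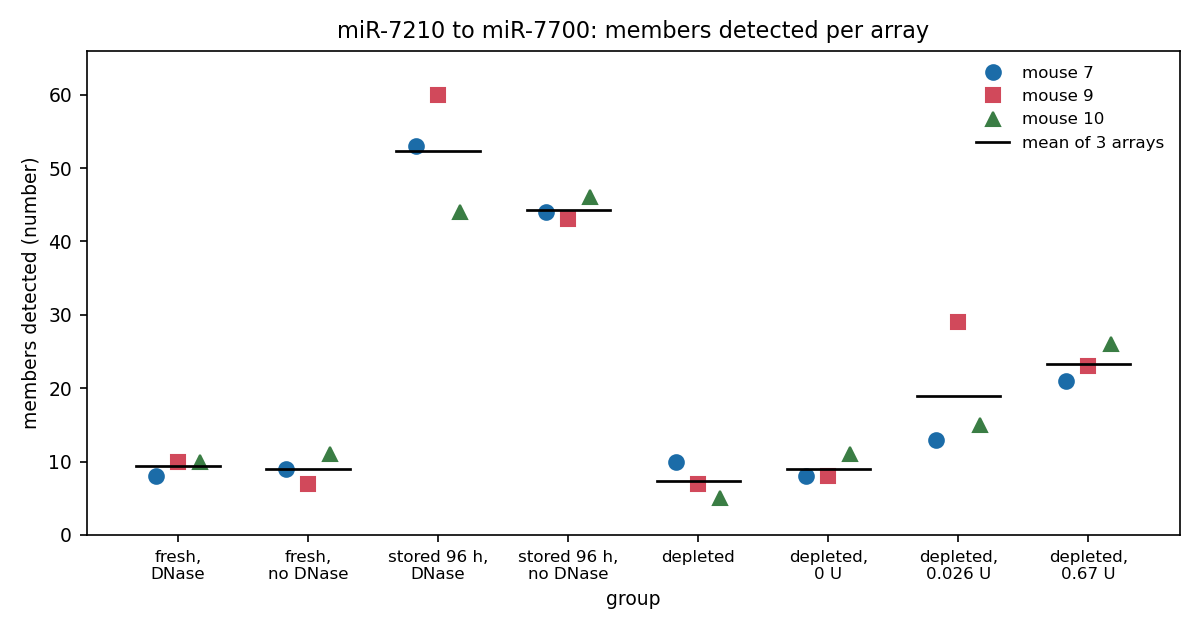
Number of the 157 members flagged as detected (vertical axis) on each of the 24 arrays, by group (horizontal axis), with a symbol per mouse and a black line for the mean of 3 arrays. Fresh and depleted arrays without RNase lie between 5 and 11 members, the 6 stored arrays between 43 and 60, and the 6 RNase-treated arrays between 13 and 29.

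Of the 157 members, 93 were detected on no array and 64 on at least 1. In percent, 59.2% of the members and 53.3% of all 1881 miRNAs were never detected. Of the 64 detected members, 19 were seen on 1 to 4 arrays, 17 of them on stored arrays and nowhere else. Of the members, only mmu-miR-7241-5p and mmu-miR-7686-5p were among the 122 miRNAs detected on all 24 arrays. On at least 1 of the 6 fresh arrays, 11 members were detected. All 6 stored arrays detected 42 members and 485 of all 1881 miRNAs, and 31 of these 42 members were on no fresh array. Of these 31, RNase treatment of depleted RNA brought up 16 on at least 1 array, while 15 appeared on no depleted array of any kind. RNase-treated arrays held 29 members in all, 18 of them absent from the untreated and 0 U arrays. Members seen outside this order were rare, with mmu-miR-7660-3p detected with RNase but in no stored sample, and mmu-miR-7680-3p on 1 depleted array (signal 8.28, mouse 7) and nowhere else. Both were named after their values were seen. The remaining counts of this paragraph were not made over all miRNAs, so they do not set the members apart from others.

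The first question was what storage of the tissue does to the signals of these miRNAs. A member was tested if it was detected on at least 5 of the 24 arrays. This held for 45 of the 157 members and 631 of all 1881 miRNAs. Differences are given on the glog2 scale of variance stabilizing normalization (vsn). It runs like log2 for strong signals and is also defined at and below 0, where changes from undetected values can come out large. In DNase-treated RNA 36 of the 45 members were higher after storage and 1 was lower (limma, adjusted p under 0.05 and a change of at least 1). Among all 631 tested miRNAs 60.4% were called higher and 21.6% lower. Most of the 45 passed the detection filter through the stored arrays, and 31 of the 36 were not detected on any fresh DNase-treated array, so their number is no evidence that the members respond more than others. The median change was 3.76 for the members and 2.47 for all tested miRNAs. With each value not detected raised to the lowest detected value of its array, these medians were 2.17 and 1.32. For mmu-miR-7238-5p, not detected in fresh DNase-treated RNA, the change was 8.49 as fitted and 2.74 with values so raised. The choice of scaling shifts all changes together, with a median over all tested miRNAs of 1.67 when arrays were scaled to the 75th percentile (over miRNAs that all arrays detected), 1.14 with quantile normalization and 4.38 with spike-in features, and the members called higher and lower were 30 and 5 with quantile normalization, 44 and 0 with spike-in features, and 4 and 0 with normexp background correction before quantile normalization.

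mmu-miR-7686-5p was measurable throughout and had fresh DNase-treated signals of 13.1, 13.0 and 14.0 in mice 7, 9 and 10, against 509, 407 and 1487 after storage. Its groups did not overlap, and the change was 3.76 ± 0.51 (SE, n = 3 and 3, limma adjusted p = 1.1e-06). mmu-miR-7226-5p rose from 4.48, 4.52 and 5.43 to 95.7, 38.0 and 773, a change of 2.89 ± 0.75 (limma adjusted p = 0.0014). Here the stored mouse 10 array lay far above the others, and without it the change was 1.49 and still called, but with quantile normalization, at 1.05, it was not. For mmu-miR-7686-5p the change without this array was 3.02. mmu-miR-7666-3p had signals of 1.92, 4.32 and 1.97 in fresh RNA, detected in mice 9 and 10, and of 167, 314 and 291 after storage, a change of 4.42 ± 0.57 (limma adjusted p = 5.4e-07). It was one of 5 members raised and detected on at least 1 array of both groups.

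The other strongly raised members were not detected in fresh DNase-treated RNA, so that only a lower bound can be given, formed on the glog2 scale against the lowest detected value of each array. Bounds here and below hold for vsn values and not for other scalings. For example, the change of mmu-miR-7221-3p was 6.35 with vsn, 5.38 at the 75th percentile, 4.56 with quantile normalization and 8.51 with spike-in features. mmu-miR-7235-5p went from -0.19, 0.070 and -0.48 to 517, 638 and 135 and was at least 66.2-fold higher (limma adjusted p = 1.3e-09). mmu-miR-7221-3p reached 472, 870 and 178 after 0.43, 0.92 and 1.09, at least 73.3-fold higher (limma adjusted p = 7.8e-10). mmu-miR-7648-3p reached 363, 340 and 391 after 0.34, 0.63 and 0.82 and was at least 67.9-fold higher. The 3 mice thus lay close together for mmu-miR-7648-3p and apart for mmu-miR-7235-5p and mmu-miR-7221-3p, where mouse 10 was lowest.

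mmu-miR-7672-5p was likewise even across mice, with 113, 117 and 123 after storage and no signal above 0 before, at least 22.1-fold higher. mmu-miR-7687-5p reached 75.7, 108 and 28.5 (at least 11.8-fold), and mmu-miR-7238-5p 28.7, 52.7 and 27.0 (at least 6.67-fold, limma adjusted p = 2.4e-09). mmu-miR-7665-5p reached 17.3, 36.7 and 15.2 and was at least 4.24-fold higher. mmu-miR-7221-3p and mmu-miR-7648-3p were picked after their values were seen, as were mmu-miR-7677-5p, mmu-miR-7671-3p, mmu-miR-7654-3p, mmu-miR-7232-3p and mmu-miR-7648-5p below.

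**Figure D2:**
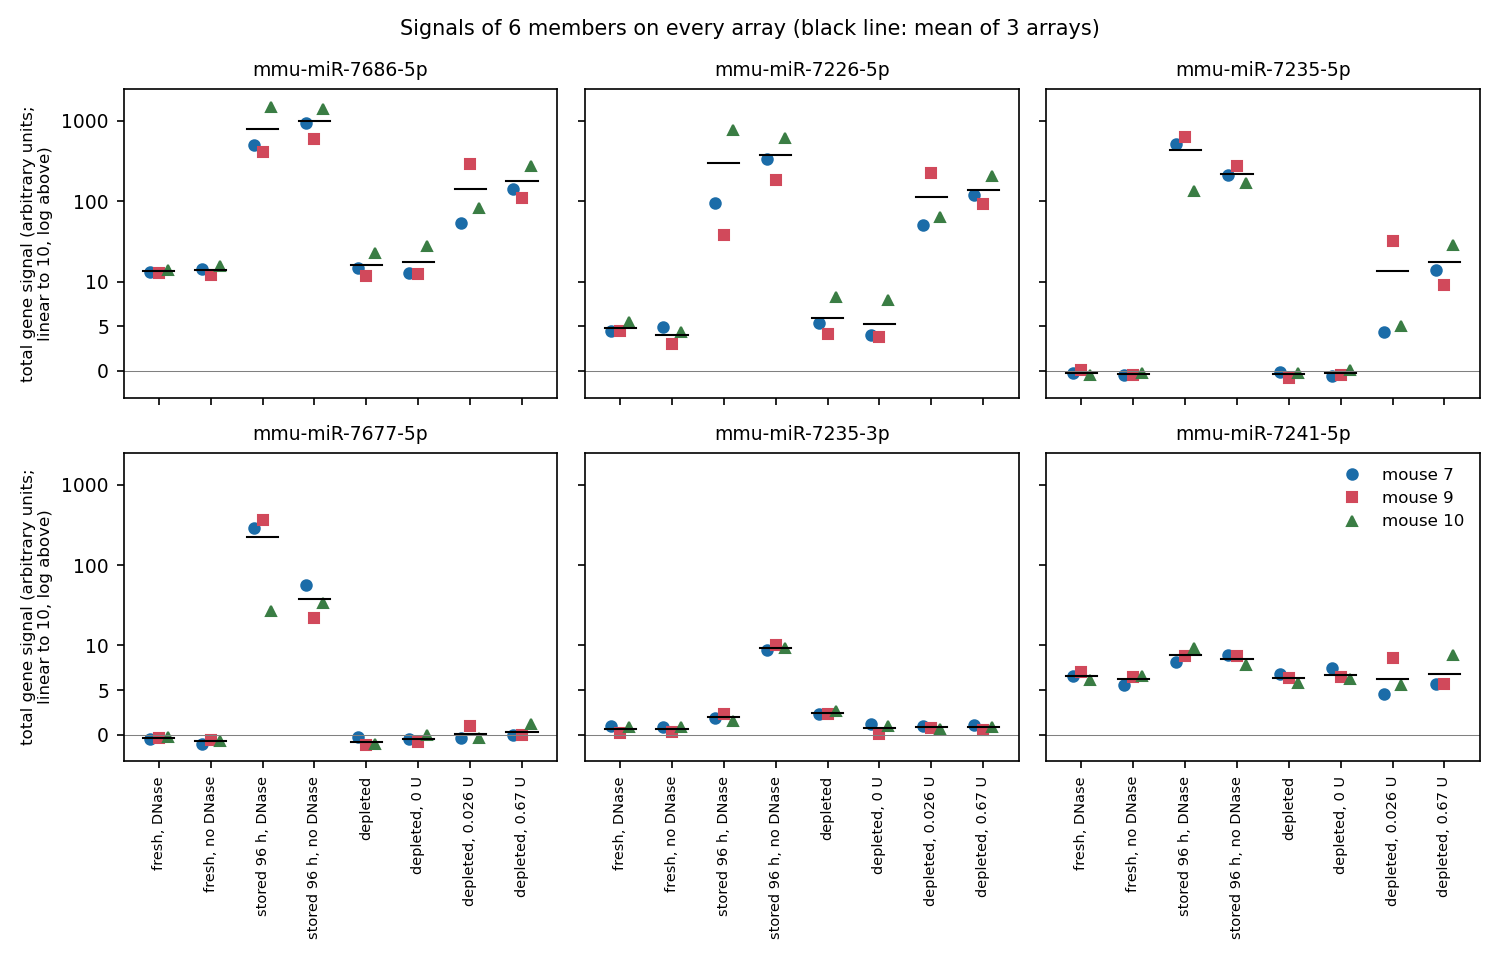
Total gene signal (vertical axis, arbitrary units, linear up to 10 and logarithmic above) of 6 members on all 24 arrays by group (horizontal axis), with a symbol per mouse and a black line for the mean of 3 arrays. miR-7686-5p, miR-7226-5p and miR-7235-5p are high in stored and RNase-treated groups, miR-7677-5p in stored groups alone, miR-7235-3p in stored RNA without DNase at about 10, and miR-7241-5p stays between 4.55 and 9.68 everywhere.

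Among the members, 8 were detected on all 3 fresh DNase-treated arrays, and besides mmu-miR-7686-5p and mmu-miR-7226-5p only mmu-miR-7653-3p of these was called higher after storage with DNase. mmu-miR-7241-5p had fresh signals of 6.54, 7.02 and 6.14 and stored signals of 8.20, 8.86 and 9.68. Although every stored value exceeded every fresh one, vsn called it lower, by -1.32 ± 0.22 (limma adjusted p = 1.4e-05), and scaling to spike-in features reversed this to 0.93. Its direction thus rests on the scaling. mmu-miR-7224-3p went from 5.83, 6.03 and 5.11 to 34.6, 36.9 and 18.8, and mmu-miR-7666-5p from 5.20, 6.33 and 5.45 to 20.8, 17.5 and 18.4, with glog2 changes of 0.44 and -0.15 that were not called. mmu-miR-7687-3p (2.29, 2.25 and 2.26, then 13.3, 11.1 and 11.9) and mmu-miR-7211-5p (4.80, 4.56 and 4.28, then 8.85, 12 and 8.94) were not called either, with changes of 0.37 and -0.72. mmu-miR-7653-3p was called higher by 1.31 ± 0.39 (limma adjusted p = 0.0042) with stored signals of 70.2, 16.4 and 25.5 after 3.60, 3.69 and 1.93, but only 2 of 3 mice showed this direction on the glog2 scale, quantile normalization gave -0.20, and it was not called without mouse 7 (0.89) or without mouse 10 (1.01).

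Storage without DNase gave a like picture. Of the 45 members 35 were higher and 1 was lower, against 60.5% and 23% of all tested miRNAs, and 34 members were higher in both DNase states. mmu-miR-7686-5p went from 14.2, 12 and 15.6 to 949, 595 and 1425 and mmu-miR-7226-5p from 4.88, 2.97 and 4.32 to 333, 186 and 620. mmu-miR-7672-5p reached 111, 99.3 and 121 (at least 21.4-fold, limma adjusted p = 1.7e-07). mmu-miR-7684-3p reached 18.6, 12.7 and 29.8 and was at least 3.97-fold higher. The member called lower was again mmu-miR-7241-5p, by -1.18 (1.24 with spike-in features). Whether storage acted differently in the 2 DNase states was tested directly, and 0 members were called in either direction, against 0.951% of all tested miRNAs higher and 0.158% lower. At an unadjusted p under 0.05, limma gave 2 members higher and 1 lower. Without the stored DNase-treated array of mouse 10, 4 members were called higher (mmu-miR-7211-5p, mmu-miR-7226-5p, mmu-miR-7235-3p and mmu-miR-7654-3p, by 1.02 to 2.98), and with mouse as a block 1, mmu-miR-7235-3p (1.72, limma adjusted p = 0.046). No share over all tested miRNAs is given for these alternatives, so their counts do not set the members apart. The rank test was not run for this interaction.

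The next question was how the signals differ when DNase digestion is left out. In fresh RNA, omission of DNase called 0 members in either direction, and 0% of all miRNAs. At an unadjusted limma p under 0.05, 1 member was higher and 2 were lower. The exact rank test could only give 0, since its smallest p for 3 against 3 arrays is 0.1. In stored RNA 1 member was higher without DNase and 0 were lower, against 6.18% and 4.6% of all tested miRNAs. It was mmu-miR-7235-3p, with 1.89, 2.33 and 1.57 with DNase, not detected, and 9.49, 10.08 and 9.69 without, a change of 1.85 ± 0.33 (SE, n = 3 and 3, limma adjusted p = 8.0e-04). The bound of at least 3.60-fold equals this fitted change, since the undetected values lay above the lowest detected signal of their arrays. Its opposite arm was lower without DNase in mice 7 and 9, with 214, 272 and 169 against 517, 638 and 135, and was not called. Without mouse 7 the count fell to 0, and scaling to the 75th percentile or by quantiles also gave 0.

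This comparison depends on the mouse 10 array described above. Of the 42 members detected on all stored arrays, 32 in mouse 7 and 33 in mouse 9 had a lower signal without DNase than with it, but 8 in mouse 10. With the stored DNase-treated array of mouse 10 left out, a choice made after seeing the data, omission of DNase raised 4 members and lowered 6, against 17% and 12.8% of all tested miRNAs. The 4 were mmu-miR-7226-5p, mmu-miR-7235-3p, mmu-miR-7654-3p and mmu-miR-7686-5p, and the 6 were mmu-miR-7216-5p, mmu-miR-7221-3p, mmu-miR-7242-5p, mmu-miR-7653-5p, mmu-miR-7677-5p and mmu-miR-7684-5p. mmu-miR-7677-5p had signals of 290, 360 and 26.6 with DNase and 57.1, 22.3 and 33.5 without, and mmu-miR-7684-5p of 79.7, 108 and 9.86 against 17, 12.6 and 11.6. For both, mouse 10 with DNase lay in the range of the arrays without it or below. mmu-miR-7654-3p ran the other way, with 12.9, 2.96 and 49.1 against 44.6, 21.9 and 54.5. The storage comparison itself kept all its 36 higher members without this array. Whether the array carries the treatment of its label was not tested.

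Depleted RNA was compared with fresh DNase-treated RNA to see which signals change when small RNAs are reduced. Of the 45 members 5 were lower and 1 was higher, against 24.4% and 5.39% of all tested miRNAs, and scaling to the 75th percentile gave 22 lower and 14 higher. mmu-miR-7671-3p had fresh signals of 2.37, 5.87 and 5.57 and fell to -0.56, -0.71 and -1.25, at least 2.55-fold lower (limma adjusted p = 1.8e-06). mmu-miR-7666-3p fell from 1.92, 4.32 and 1.97 to -0.51, -0.68 and -0.66, at least 1.68-fold lower (limma adjusted p = 3.3e-05). In fresh RNA without DNase both were detected in all mice, mmu-miR-7671-3p at 9.43, 9.88 and 11.6 and mmu-miR-7666-3p at 7.49, 7.94 and 8.74. mmu-miR-7241-3p, mmu-miR-7232-3p and mmu-miR-7686-3p were also called lower but were detected in neither group, so that no fold is given.

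The member higher in depleted RNA was mmu-miR-7235-3p, with 2.35, 2.28 and 2.67 against 0.92, 0.22 and 0.82, at least 2.21-fold higher and detected in 2 of 3 depleted samples. Of the 8 members detected in all fresh DNase-treated RNA none was called after depletion, with mmu-miR-7241-5p at 6.78, 6.30 and 5.83 and mmu-miR-7686-5p at 14.7, 11.8 and 22.6. Depletion was incomplete and uneven across the cell type miRNAs. Of the 10 examined, 6 were still detected on all 3 depleted arrays and 4 on none. miR-122-5p had mean signals of 10087 ± 2900 (SD, n = 3) before and 2705 ± 394 after depletion, miR-192-5p 796 ± 159 and 25.1 ± 6.99, and miR-223-3p of myeloid cells 32.6 ± 11.4 and 4.09 ± 1.44. Incubation at 0 U called 0 members in either direction, against 0.158% of all tested miRNAs higher and 1.58% lower. At an unadjusted limma p under 0.05, 1 member was higher and 3 were lower. Here, too, the exact rank test could only give 0, its smallest p for 3 against 3 arrays being 0.1.

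The last question was how the signals change when RNA depleted of small RNAs is degraded with RNase. Compared with 0 U, the mean of both RNase doses was higher for 27 members and lower for 0, against 44.7% and 0% of all tested miRNAs. Of these 27, 5 were detected on at least 1 array both with RNase and at 0 U, 17 were detected with RNase alone, and 5 were detected on no array of either side, so that their calls rest on values not flagged as detected. The median change of the 45 members was 2.04, against 0.69 for all tested miRNAs, but with undetected values raised to the lowest detected value these medians were -0.02 and 0.06, and 14 members kept a change of at least 1. Scaling to the 75th percentile gave 32 higher and 9 lower, quantile normalization 27 and 7, and normexp with quantile normalization 1 and 0. For lower calls limma gave 3 members at an unadjusted p under 0.05. Without both samples of mouse 9 whose dose is uncertain, 25 members were higher, all among the 27, and without mouse 9 altogether 21. For the counts with raised values, other scalings or left-out samples, no share over all tested miRNAs is given. They do not set the members apart.

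mmu-miR-7686-5p had signals of 12.8, 12.3 and 27.5 at 0 U, 54.5, 296 and 82.0 at 0.026 U and 144, 110 and 278 at 0.67 U. All 6 treated values exceeded the 3 untreated ones, and the change was 2.56 ± 0.44 (SE, n = 6 and 3, limma adjusted p = 6.3e-05). mmu-miR-7226-5p went from 4.07, 3.84 and 7.91 to 50.8, 227 and 63.2 and to 121, 93.7 and 206, again without overlap, a change of 3.83 ± 0.65 (limma adjusted p = 5.1e-05). mmu-miR-7235-5p had -0.53, -0.45 and 0.16 at 0 U, 4.37, 31.8 and 5.07 at the lower and 13.8, 9.65 and 28.6 at the higher dose, at least 6.36-fold higher (limma adjusted p = 6.8e-07). mmu-miR-7687-5p had -1.06, -0.39 and -0.16 at 0 U, 4.49, 40.7 and 5.89 at the lower and 14.7, 6.97 and 39.0 at the higher dose, at least 6.85-fold higher. mmu-miR-7216-5p reached 2.20, 24.4 and 3.99 and then 7.73, 7.66 and 22.9 (at least 4.34-fold). In each of these the highest 0.026 U value was that of mouse 9.

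mmu-miR-7686-3p was detected on 4 of 6 treated arrays and was at least 2.62-fold higher (limma adjusted p = 1.8e-09). mmu-miR-7666-3p had -0.87, -0.50 and 0.18 at 0 U, 1.05, 10.3 and 0.99 at 0.026 U and 2.29, 1.80 and 9.39 at 0.67 U, at least 1.87-fold higher. mmu-miR-7241-5p and mmu-miR-7687-3p were not called. mmu-miR-7241-5p had 7.45, 6.49 and 6.26 at 0 U, 4.55, 8.55 and 5.61 at 0.026 U and 5.72, 5.66 and 8.96 at 0.67 U, and mmu-miR-7687-3p 4.15, 2.31 and 2.69, then 2.07, 2.85 and 2.22, then 2.32, 2.26 and 4.04. Their ranges overlapped at all doses.

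Between the 2 RNase doses 0 members were called in either direction, as were 0% of all tested miRNAs. At an unadjusted limma p under 0.05, 2 members were higher at 0.67 U and 0 lower. The exact rank test could only give 0, as its smallest p for 3 against 3 arrays is 0.1. The number of limma calls depends on mouse 9. With both of its RNase-treated samples left out, a choice made after seeing the data, 5 members were higher at 0.67 U and 0 lower, against 6.97% and 0% of all tested miRNAs, and with the doses taken from the sample titles 3 members were higher (mmu-miR-7648-5p, mmu-miR-7668-3p and mmu-miR-7684-3p). The 5 were mmu-miR-7221-3p, mmu-miR-7238-5p, mmu-miR-7668-3p, mmu-miR-7671-3p and mmu-miR-7672-5p, with changes of 1.72 to 3.82. Among the members of both lists, mmu-miR-7648-5p, mmu-miR-7684-3p and mmu-miR-7672-5p were detected on no RNase-treated array. Their dose calls rest on values not flagged as detected. In mice 7 and 10 mmu-miR-7221-3p had 2.37 and 2.29 at 0.026 U and 9.14 and 19.7 at 0.67 U, whereas mouse 9 had 18.5 and 7.09. For mmu-miR-7686-5p, mmu-miR-7226-5p, mmu-miR-7235-5p, mmu-miR-7687-5p and mmu-miR-7216-5p, too, mice 7 and 10 were higher at 0.67 U and mouse 9 at 0.026 U. For the 3 members called with the doses of the titles, no share over all tested miRNAs is given. Which of both labels of mouse 9 is right was not tested.

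All 27 members higher with RNase were among the 36 higher after storage with DNase, that is 75% of the 36 and 100% of the 27. Over all tested miRNAs the shared calls were 70.6% of the 381 higher after storage and 95.4% of the 282 higher with RNase. These comparisons have no arrays in common but share the mice and their slides. Since most tested members passed the detection filter through stored arrays, this overlap is largely set by the filter. In addition, 5 of the 27 were detected on no RNase-treated or 0 U array. The 9 members higher after storage alone included mmu-miR-7677-5p, with signals of at most 1.15 on any RNase-treated array against 22.3 to 360 on the stored ones, mmu-miR-7232-3p (at most -0.10 against 14.0 to 34.3), mmu-miR-7648-5p (at most 0.083 against 5.73 to 26.1) and mmu-miR-7654-3p (at most 0.84 against 2.96 to 54.5). A call in 1 comparison and not in the other is no test of their difference, which was not made. Signals of mmu-miR-7672-5p, though called in both, were at most 2.15 with RNase against 99.3 to 123 after storage.

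**Figure D3:**
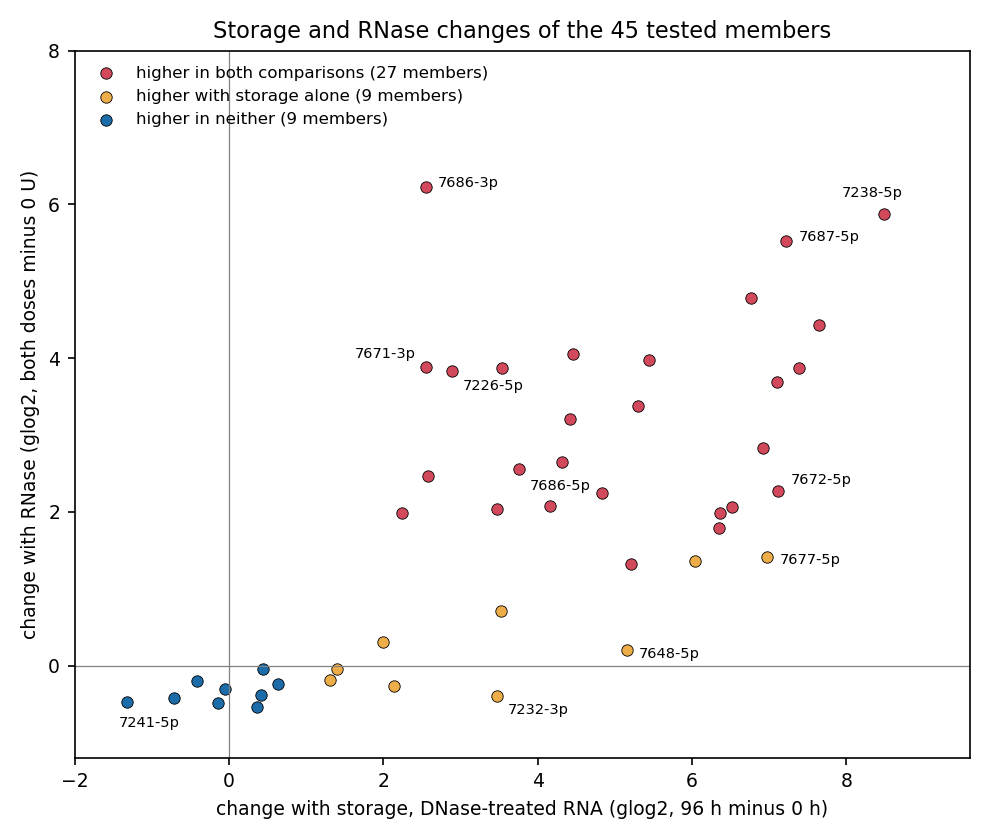
Change after storage of DNase-treated RNA (horizontal axis, glog2, 96 h minus 0 h) against change with RNase in depleted RNA (vertical axis, glog2, both doses minus 0 U) for the 45 tested members, coloured by the comparisons in which they were called higher. The 27 members higher in both lie at the upper right, 9 higher with storage alone lie between -0.39 and 1.41 on the RNase axis, and the 9 called higher in neither between -1.32 and 0.63 on the storage axis.

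Calls often differed between the arms of a hairpin. Among the 78 hairpins with both arms on the array, both arms were detected somewhere for 17, the 5p arm alone for 13, the 3p arm alone for 17 and neither for 31. Both arms were tested for 13 hairpins, and both were higher after storage with DNase for 6 of them, miR-7218, miR-7221, miR-7648, miR-7653, miR-7684 and miR-7686. In the other 7 hairpins 1 arm was called higher, which does not by itself show that the arms differ, and their difference was not tested. Which arms were not called also depends on the scaling. With spike-in features 44 of the 45 tested members were called higher after storage with DNase. mmu-miR-7241-3p went from 1.48, 2.75 and 2.26, not detected, to 161, 128 and 266, at least 17.9-fold higher with vsn. Its change was 4.17 with vsn, 2.10 with quantile normalization and 6.44 with spike-in features, while mmu-miR-7241-5p changed by -1.32 on the glog2 scale with vsn. mmu-miR-7211-3p went from -0.46, -0.29 and -0.47 to 23.1, 42.1 and 12.1, at least 4.53-fold higher, and mmu-miR-7211-5p changed by -0.72. mmu-miR-7687-3p, mmu-miR-7665-3p and mmu-miR-7235-3p, partners of arms that rose, changed by 0.37, -0.05 and -0.42 with vsn and were not called. Their mean signals before scaling still rose, from 2.27 to 12.1, from 2.13 to 8.19 and from 0.65 to 1.93. Of these, mmu-miR-7235-3p was detected in neither fresh nor stored DNase-treated RNA, so its value compares undetected signals. Where an arm was detected after storage but not in fresh RNA, its change is known as a bound alone, so that the arms were not ranked by it.

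**Figure D4:**
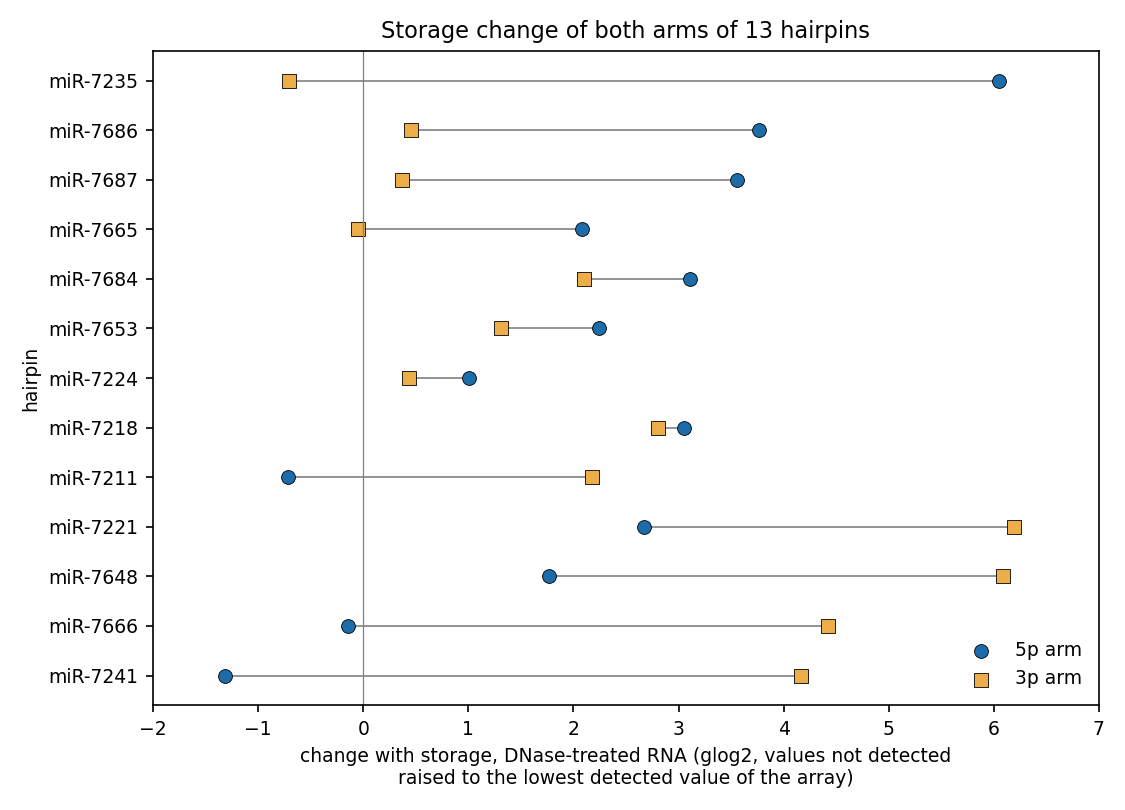
Change after storage of DNase-treated RNA (horizontal axis, glog2, values not detected raised to the lowest detected value of the array) of the 5p arm (circle) and the 3p arm (square) of the 13 hairpins with both arms tested. For arms detected after storage but not in fresh RNA the point is a lower bound, so the order of such arms is not settled. miR-7235-3p was detected in neither group, so its point compares undetected values alone and is no bound. miR-7241-5p, miR-7211-5p, miR-7666-5p, miR-7235-3p and miR-7665-3p lie below 0 and their partners above 2. These are vsn values, and with spike-in features the fitted changes of all 45 tested members were above 0.

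The share of G in the mature sequence, which the choice of members did not use, differed between the classes of members. These classes rest on the vsn calls. With spike-in features 44 of the 45 tested members were called higher after storage with DNase, which leaves few outside that class. Among the 134 members with a sequence, the median share of G was 45.5% for the 21 higher with storage and RNase, 39.1% for the 8 higher with storage alone, and 14.3% for the 7 tested but higher with neither. It was 34.1% for the 16 detected on 1 to 4 arrays and 22.7% for the 82 never detected. Over all miRNAs of the array with a sequence the medians of these 5 classes, in the same order, were 45.5%, 31.0%, 21.7%, 31.8% and 22.7%. Single members departed from this, as mmu-miR-7653-3p with 9.09% G, mmu-miR-7218-3p with 25% and mmu-miR-7217-5p with 28% were called higher after storage. The corresponding shares of C were 22.2%, 21.9% and 41.7% in the tested members, so that the arms higher with neither had more C. A run of at least 3 G occurred in 18 of the 21, 5 of the 8 and 0 of the 7, and in 11 of the 82 never detected, against 76.9%, 36.1%, 12.3% and 19.3% of all miRNAs in these classes.

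Counted by G share, all 13 members with at least 45% G were detected on some array, as were 21 of 31 with 35% to under 45%, 9 of 35 with 25% to under 35% and 9 of 55 with less. Over all miRNAs with a sequence 81.4%, 62.1%, 40.7% and 33.5% of these bins were detected. Of the tested members 12 of 12, 14 of 14, 2 of 2 and 1 of 8 were higher after storage, against 95%, 83.8%, 49.5% and 22.7% of all tested miRNAs in the bins. Since tested members mostly passed the filter through stored arrays, these counts are largely fixed by it. Across the 36 tested members with a sequence, G share and storage change correlated at Pearson r = 0.80 and Spearman rho = 0.77 (0.71 and 0.68 with undetected values raised), and G share and RNase change at 0.67 and 0.66 (0.48 and 0.63). For the share of G and C together these were 0.35 and 0.37 with storage and 0.14 and 0.19 with RNase. Across all 526 tested miRNAs with a sequence, Pearson r and Spearman rho were 0.64 and 0.68 for G share with storage, 0.63 and 0.72 for G share with RNase, 0.56 and 0.53 for G and C together with storage, and 0.34 and 0.36 with RNase. These are descriptions across miRNAs that share arrays and labelling, and the part of labelling and hybridization in them was not tested.

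**Figure D5:**
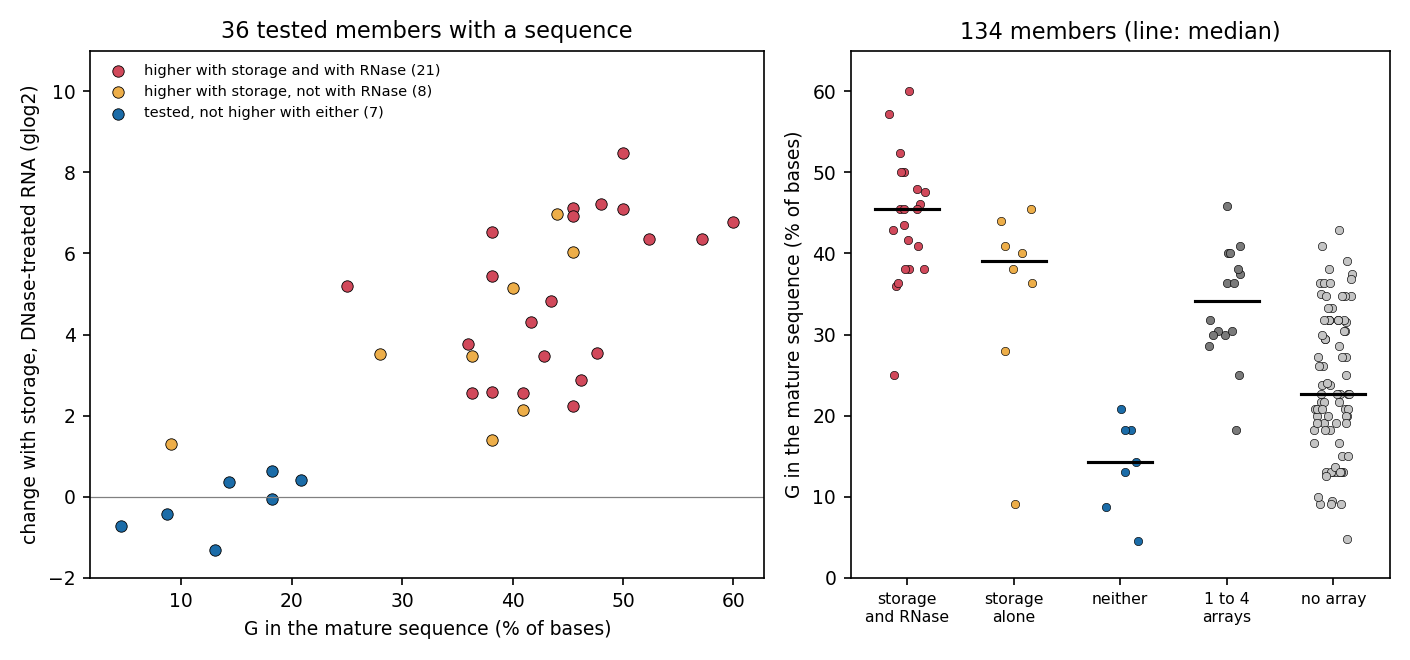
Left, share of G in the mature sequence (horizontal axis, % of bases) against change after storage of DNase-treated RNA (vertical axis, glog2) for the 36 tested members with a sequence, coloured by call. Right, share of G (vertical axis, %) of the 134 members with a sequence by class (horizontal axis), with the median as a black line. All 7 members higher in neither comparison lie at or below 20.8% G, and the 21 higher in both between 25% and 60%. Classes are those of the vsn calls and depend on the scaling.

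Of 13 hairpins in which a single arm was tested and both sequences are known, the tested arm had more G than its partner in 12, the exception being miR-7667. Tested arms had passed the detection filter, and detection rose with G share over all miRNAs. No such count was made over all hairpins of the array, so it does not set these hairpins apart. Of 7 with both arms tested and both sequences known, the arm with more G had the larger fitted storage change in 4, and in 5 with undetected values raised.

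Beside the neighbouring number blocks, the members were seldom seen in intact RNA. On fresh DNase-treated arrays 5.94% of them were detected on average, against 10.7% of the 398 miRNAs numbered 6896 to 7093 and 22.6% of the 31 numbered 8090 to 8120. On stored DNase-treated arrays the averages were 33.3%, 40.4% and 68.8%. Of the tested miRNAs 80%, 71.1% and 84.2% were higher after storage and 60%, 55.6% and 68.4% higher with RNase, and median storage changes were 3.76, 3.42 and 4.38. The differences between the blocks were not tested.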

How the data were processed

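Liver RNA of 3 mice in 8 groups was measured on 24 one-colour miRNA arrays, RNA being labelled at the 3′ end with pCp-Cy3. Per the file headers, intensity values came from Agilent Feature Extraction 10.10.1.1, background-subtracted and summed per miRNA, with a detection flag. The authors also deposited a table of log2 values after variance stabilizing normalization (vsn). Here vsn was refitted to the gene signals (SD of the difference from the deposited values 0.0956), and 631 miRNAs detected on at least 5 of 24 arrays were tested with limma 3.58.1 (R 4.3.3) in 1 model of 8 group means, with Benjamini-Hochberg adjustment. A call required an adjusted p under 0.05 and a change of at least 1.

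Samples were grouped by the labels, and the RNase doses of mouse 9 by the descriptions. In simulated data for storage with DNase, 200 of 631 miRNAs were given a change. Of changes of 2 on the glog2 scale 77.6% were recovered, with 6 false calls among the miRNAs left unchanged. The labels give samples of 1 number the same animal, so numbers pair samples (mean correlation of deviations 0.0914 within and -0.045 between mice). Named were, per comparison, up to 5 members with the largest rise and fall among those called, moving alike in 3 mice and detected on every array of a group, the members detected in all fresh DNase-treated samples, and their opposite arms. Members and lists were chosen with earlier results of these data known. The number of arrays limits the precision. Alternatives covered scaling, background correction (normexp on median signals, as no mean signal column was used), the deposited table, filter, block, detection rule, rank test and left-out mice. Leaving out the stored DNase-treated array of mouse 10 or both RNase-treated arrays of mouse 9 was decided after seeing the data.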

Additional observations from a re-analysis of the deposited data

How the results depend on the processing

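Of 56 results for named members, the deposited table, no filter and the replicate block (mouse as a block) each left 55 on their side of the threshold, spike-in scaling 53, the 75th percentile 48, quantile normalization 47, the exact rank test 13 and normexp with quantile normalization 7, and leaving out mouse 7, 9 or 10 left 48, 52 and 54. The replicate block gave 1 member higher for the storage response by DNase, as did spike-in scaling, and ended the call of mmu-miR-7653-5p for storage without DNase (limma adjusted p = 0.051). Normexp with quantile normalization gave 4 higher and 0 lower for storage with DNase, 6 and 0 without DNase, 0 higher for DNase omission at 96 h, 0 and 0 for depletion, and 1 higher for RNase. Its offset of 50 compresses weak signals. No filter gave 67 higher and 28 lower, 58 and 22 without DNase, 4 higher for DNase omission at 96 h, 6 higher for depletion, 1 lower for mock incubation and 5 lower for RNase. Spike-in scaling gave 0 lower for both storage comparisons, quantile normalization 5 lower with DNase, 2 lower without, 0 higher for DNase omission at 96 h, 5 higher for depletion and 7 lower for RNase, and the 75th percentile 2 lower for storage with DNase, 0 higher for DNase omission at 96 h, 14 higher and 22 lower for depletion and 9 lower for RNase. Calls of the exact rank test used its unadjusted p under 0.05, a laxer rule than the adjusted p of the other settings. This test, whose smallest p for 3 against 3 is 0.1, gave 0 for storage, DNase omission at 96 h and depletion. Without the stored DNase-treated array of mouse 10, the storage response by DNase gave 4 higher and DNase omission at 96 h 4 higher and 6 lower. For the RNase dose, titles for mouse 9 gave 3 higher and leaving out its arrays 5. With 1 mouse left out, counts ran from 0 to 1 higher for the storage response, 0 to 3 higher and 0 to 5 lower for DNase omission at 96 h, and 1 to 2 higher and 3 to 5 lower for depletion. mmu-miR-7241-5p reversed with spike-in scaling (0.93 with and 1.24 without DNase), mmu-miR-7653-3p with quantile normalization (-0.20) and normexp (-0.037), and mmu-miR-7653-5p without DNase with quantile normalization (-0.011). Counts in this paragraph are of members alone and do not set them apart from other miRNAs. Causes were not tested. With more than 50% of the probes required well above background, mean members per array were 3 and 4 (fresh, with and without DNase), 36 and 26.7 (stored), 2 (depleted), 3.67 (0 U), 7.67 (0.026 U) and 13 (0.67 U), and a fixed signal threshold gave 7 (fresh, DNase), 50 (stored, no DNase), 6.33 (0 U) and 19 (0.67 U).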
